A study of Mus musculus with 8 samples.

Results

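A set of 9 genes that are widely used to mark or isolate epithelial stem and progenitor cells was followed in sorted cells of the mouse esophagus. They were Cd44, Cd24a, Cd34, Procr, Prom1, Bmi1, Thy1, Dclk1 and Atp1b3, 9 of the 55276 gene symbols in the count table, and they were taken from a given list of marker genes and not by their values here. All 9 had enough counts to be tested. Bmi1 encodes a nuclear protein and Dclk1 a kinase inside the cell, while the others encode surface proteins. Esophageal epithelium of C57BL6 mice aged 14 to 15 weeks was made into a cell suspension, and cells that excluded the dead-cell dye DAPI and carried integrin-b1 were sorted by Cyto-ID, a dye of autophagic vesicles. The Cyto-ID Low group held the cells with little dye and the Cyto-ID High group those with much dye. Each of 4 animals, called Female1, Female2, Male1 and Male2, gave 1 RNA-seq library of each group, so that 4 High and 4 Low libraries were compared. No genetic change or drug is given in the labels for either group, and the dye staining and the gates on DAPI and integrin-b1 were shared by both. The study asked how the 2 fractions of basal cells differ.

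The lining of the esophagus is a stratified squamous epithelium, in which basal cells divide and their daughters differentiate as they move up. Stem cells of epithelia have no single marker. Cd44 is a receptor for hyaluronan, Cd24a is a small mucin-like protein anchored in the membrane, and Procr binds protein C, an anticoagulant protease. Cd34 is a sialomucin of hair follicle stem cells, blood progenitors, endothelium and fibroblasts. Thy1 is an anchored protein of fibroblasts, neurons and T cells, and Prom1 is found on membrane protrusions. Bmi1 is a subunit of Polycomb repressive complex 1, which silences genes through chromatin. Dclk1 is a microtubule-associated kinase used to mark tuft cells, and Atp1b3 is a beta subunit of the sodium pump.

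Of the genes, 2 fell together in Cyto-ID High, Procr and Bmi1, and the sequences before their start sites are shown for that reason. Of the 9 genes, 7 were found in the RefSeq promoter table of build GRCm38.p6 (all but Cd24a and Thy1). In the 250 bases before each start, matches on both strands were sought to CACGTG (E-box), TGANTCA (AP-1 motif), GGGCGG (GC box), CCAAT and TATAAA. Capitals mark the matches. A match read on the other strand appears as its reverse complement, and neighbouring GGGCGG matches can overlap. The Bmi1 stretch lies at chr2:18676768-18677017 on the plus strand and the Procr stretch at chr2:155750967-155751116 on the plus strand. The Procr stretch ends after 150 bases, where the gene begins in GENCODE release M21.
Bmi1: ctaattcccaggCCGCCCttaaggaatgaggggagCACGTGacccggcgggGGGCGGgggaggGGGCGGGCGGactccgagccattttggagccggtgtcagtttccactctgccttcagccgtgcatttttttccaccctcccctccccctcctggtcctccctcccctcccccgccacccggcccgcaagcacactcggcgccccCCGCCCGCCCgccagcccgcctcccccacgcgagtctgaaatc
Procr: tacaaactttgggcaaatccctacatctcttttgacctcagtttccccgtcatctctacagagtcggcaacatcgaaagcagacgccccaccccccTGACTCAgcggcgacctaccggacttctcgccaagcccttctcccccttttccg
The Bmi1 stretch holds 6 GGGCGG matches and 1 CACGTG match, the latter 215 bases before the RefSeq start. The Procr window holds 1 TGANTCA match, 154 bases before the RefSeq start, and no match to the other 4 motifs. Of 32851 promoter windows of the same length, 32.7% hold GGGCGG, 6.02% hold CACGTG and 6.75% hold TGANTCA. The 2 windows share none of these motifs. These matches describe the sequence, and binding was not measured.

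The libraries held 26285150 to 29301054 counts each, and 17344 genes had enough counts for the comparison of the fractions. Basal and differentiation genes parted the fractions. Of 16 basal keratinocyte genes 15 were lower in High and 0 higher, with a median log2 fold change of −2.54. Of 19 tested suprabasal genes 17 were higher and 0 lower, with a median of 3.10. Levels are given in CPM, the counts of a gene brought to a common library size, after TMM scaling, which allows for the few very abundant genes of a library. The keratins Krt5 (8711 CPM in Low, 838 in High) and Krt13 (7776 in Low, 65729 in High) were present in both fractions, as was Itgb1, the transcript of the gated integrin (370 in Low, 68.2 in High). The fitted median of all tested genes was −0.09 on the log2 scale, and −0.64 when libraries were scaled by their total counts alone, so the size of a small difference depends on the scaling. Some High libraries stood apart. Summed markers of fibroblasts, leukocytes and muscle were lowest in the High library of Male2 and second lowest in that of Female2, and both Female2 libraries held transcripts of gastric epithelium (19.8 CPM in Low and 117 in High, against 0.664 to 1.39 in the other 6 libraries). In bulk RNA, fewer cells of a type and less RNA per cell cannot be told apart.

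Of the 9 markers 3 differed between the fractions past an adjusted p of 0.05 over all tested genes (edgeR's quasi-likelihood test with sex as a covariate, Benjamini-Hochberg adjustment). Cd24a was higher in Cyto-ID High, and Procr and Bmi1 were lower. The other 6 did not pass. Over all tested genes 48.7% passed in either direction, 23.4% higher and 25.3% lower, so the share of the markers that passed is not above the background of this comparison. The High and Low libraries did not overlap for the same 3 markers, where 48.6% of all tested genes did not overlap.

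**Figure D1:**
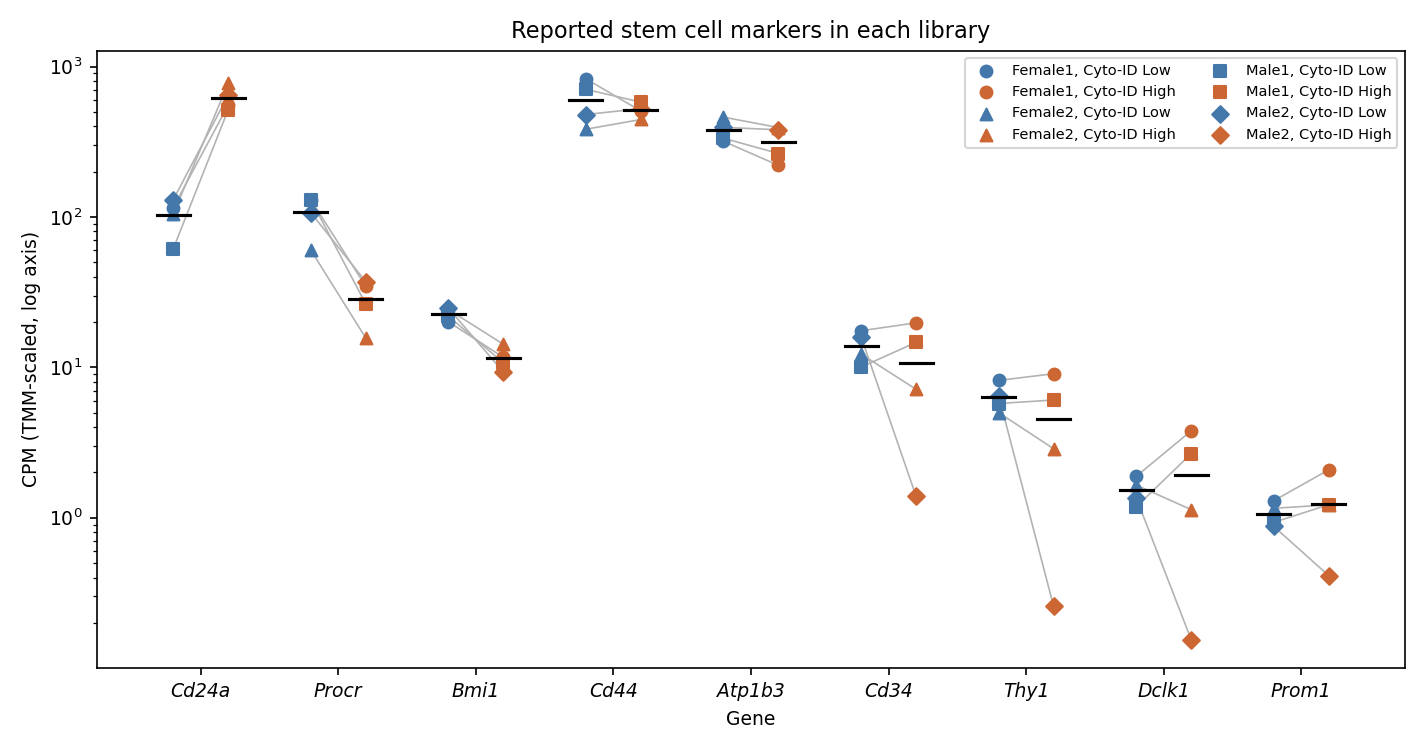
TMM-scaled CPM of each marker on a log axis in the 4 Cyto-ID Low libraries (blue) and the 4 Cyto-ID High libraries (orange), with grey lines that join the libraries of 1 animal and black bars at the group means. Cd24a lies higher in all 4 High libraries, Procr and Bmi1 lie lower in all 4, and Cd34, Thy1 and Dclk1 spread most within High.

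Cd24a was the marker with the largest difference. In the Low libraries of Female1, Female2, Male1 and Male2 it stood at 115, 104, 61.1 and 130 CPM. In their High libraries it stood at 553, 771, 516 and 645 CPM. The lowest High library lay well above the highest Low library. The mean was 102.5 ± 29.5 CPM in Low and 621 ± 114 in High (SD, n = 4 each), and the fitted difference was 6.06-fold. The log2 fold change was 2.60 (SE 0.25, 95% interval 2.04 to 3.16, edgeR adjusted p 3.39e-05). Within the animals the log2 difference of High minus Low was 2.26, 2.89, 3.08 and 2.31 in the same order. Cd24a passed under each of 19 alternative settings, with fold changes of 2.02 to 2.86 on the log2 scale.

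The list of Cd24a partners and sialomucins did not move with it. Of its 6 tested genes 0 were higher and 1 was lower, with a median of −0.16 beside −0.09 for all genes. The lower gene was Selp, a selectin of platelets and endothelium that binds CD24, at 1.13 CPM in Low and 0.480 in High (log2 fold change −1.24, edgeR adjusted p 0.0456), and with RLE size factors 0 genes of the list were lower. Siglecg, a lectin receptor that binds CD24, had 1 to 12 counts per library and was not tested. Podxl, a sialomucin related to Cd34, had a mean of 2.23 CPM in Low and 2.34 in High (edgeR adjusted p 0.966).

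Procr, the endothelial protein C receptor and a marker of multipotent mammary stem cells, was lower in Cyto-ID High. The Low libraries of Female1, Female2, Male1 and Male2 held 130, 60.3, 131 and 107 CPM. Their High libraries held 34.5, 15.7, 26.4 and 37.1 CPM. Female2 had the lowest level of both fractions, and still the groups did not overlap. The mean fell from 107 ± 33.1 to 28.4 ± 9.65 CPM (SD, n = 4 each), or 3.77-fold. The log2 fold change was −1.91 (SE 0.30, 95% interval −2.59 to −1.24, edgeR adjusted p 0.000576). The difference within animals ran from −2.30 in Male1 to −1.53 in Male2, and Procr passed under each of 19 alternatives, with an edgeR, DESeq2 or limma adjusted p of at most 0.003.

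Other genes of the protein C and thrombin pathway went both ways. Of the 11 listed genes 6 were tested, 2 of them higher and 2 lower, with a median of −0.33. The gene of the ligand itself, Proc, had 0 or 1 count per library and the thrombin gene F2 had 0 to 6, so neither was tested. Thbd encodes thrombomodulin, which presents thrombin to protein C, and it rose from 337 to 584 CPM (log2 fold change 0.78, SE 0.21, edgeR adjusted p 0.0112). F3 encodes tissue factor, which starts coagulation, and it rose from 218 to 1280 CPM (2.58, SE 0.28, edgeR adjusted p 6.29e-05). The thrombin receptor gene F2r fell from 35.8 to 4.57 CPM (−2.96, SE 0.22, edgeR adjusted p 1.42e-05). The related protease receptor gene F2rl1 fell from a mean of 158 to 79.4 CPM (−0.98, SE 0.30, edgeR adjusted p 0.023), with 1 animal higher in High. Procr and Thbd thus changed in opposite directions, although under scaling by total counts alone 1 gene of the list was higher in place of 2. The ratio of Procr to Thbd counts within a library, which no scaling alters, was 0.288 to 0.364 in Low and 0.0315 to 0.0827 in High.

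Bmi1 had the smallest spread of the 3 markers that passed. In the Low libraries of Female1, Female2, Male1 and Male2 it was at 20.1, 24.2, 21.9 and 24.8 CPM. In their High libraries it was at 11.7, 14.2, 10.7 and 9.31 CPM. All High libraries lay under all Low libraries. The mean fell from 22.8 ± 2.15 to 11.5 ± 2.07 CPM (SD, n = 4 each), or 2.00-fold. The log2 fold change was −0.997 (SE 0.16, 95% interval −1.36 to −0.64, edgeR adjusted p 0.000639). The differences within animals were −0.78, −0.77, −1.03 and −1.40, and Bmi1 passed under each of 19 alternatives.

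The genes of Polycomb repressive complex 1 did not all follow Bmi1. Of 18 tested genes of this list, which also holds the Polycomb target Cdkn2a, 2 were higher and 7 lower, with a median of −0.31. Pcgf2, the closest relative of Bmi1, fell from 34.4 to 10.4 CPM (log2 fold change −1.73, SE 0.20, edgeR adjusted p 0.000102). Rnf2, the catalytic ubiquitin ligase, fell from 36.2 to 18.5 CPM (−0.97, SE 0.18, edgeR adjusted p 0.00175), while for its paralog Ring1 the log2 fold change was −0.26 (edgeR adjusted p 0.153). Cbx6, a chromobox subunit of the kind that reads a histone mark, fell from 83.5 to 26.6 CPM (−1.65, SE 0.18, edgeR adjusted p 7.47e-05). The polyhomeotic subunit gene Phc2 fell by 1.07 in log2 terms (SE 0.14, edgeR adjusted p 0.000185). Cdkn2a, the cell-cycle inhibitor locus that Bmi1 is known to silence, had 1 to 113 counts per library and a log2 fold change of −0.22 (edgeR adjusted p 0.816). Under scaling by total counts alone, 1 gene of this list was higher and 13 were lower.

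Cd44 was abundant in both fractions. The Low libraries of Female1, Female2, Male1 and Male2 held 828, 383, 705 and 479 CPM. Their High libraries held 506, 444, 580 and 525 CPM. The animals numbered 1 had more Cd44 in Low than those numbered 2, and the High libraries lay inside the Low range. The mean was 599 ± 204 CPM in Low and 514 ± 55.8 in High (SD, n = 4 each). The log2 fold change was −0.23 (SE 0.25, 95% interval −0.78 to 0.33, edgeR adjusted p 0.498), with 2 animals lower in High (Female1 −0.71, Male1 −0.28) and 2 higher (Female2 0.21, Male2 0.13). The coefficient of variation was 34.1% in Low and 10.9% in High, a difference in spread that was not tested. Under scaling by total counts alone Cd44 was lower in High by 0.77 in log2 terms (edgeR adjusted p 0.0281), and without the Low library of Female1 the log2 fold change was 0.039 (edgeR adjusted p 0.910). These 2 are the ends of the range of adjusted p over its alternatives.

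Genes around Cd44 and hyaluronan were counted in the same fit, where 48.7% of all tested genes passed. Of 16 tested genes 2 were higher and 7 lower, with a median of −0.32, and 4 were higher with RLE size factors or with the animal as a replicate block. The hyaluronan synthases Has1 (log2 fold change −2.66, SE 0.58, edgeR adjusted p 0.00373) and Has2 (−2.00, SE 0.48, edgeR adjusted p 0.00634) fell, and Has3 was at −1.08 (edgeR adjusted p 0.106). Hmmr, another hyaluronan-binding protein, which also acts at the mitotic spindle, fell from 47.8 to 5.98 CPM (−3.00, SE 0.49, edgeR adjusted p 0.00076). Mmp14, a membrane protease that cleaves CD44, fell from 131 to 19.3 CPM (−2.77, SE 0.20, edgeR adjusted p 1.33e-05), while the sheddase gene Adam10 was at 0.32 (edgeR adjusted p 0.122). Ezrin, radixin and moesin are related proteins that link CD44 to actin. The moesin gene Msn fell by 2.61 (SE 0.29, edgeR adjusted p 7.27e-05) and the radixin gene Rdx by 0.47 in log2 terms (edgeR adjusted p 0.0399), and Ezr was at 0.56 (edgeR adjusted p 0.0699). Both genes that rose encode epithelial splicing regulators, which act on Cd44 exons. Esrp1 went from 334 to 697 CPM (1.06, edgeR adjusted p 0.000944) and Esrp2 from 121 to 311 CPM (1.35, edgeR adjusted p 0.000311). The table sums reads per gene, so the Cd44 isoforms, 9 transcripts in the annotation, were not separated.

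Atp1b3 gave a small difference in 1 direction. It stood at 318, 461, 334 and 394 CPM in the Low libraries of Female1, Female2, Male1 and Male2. It stood at 220, 393, 264 and 380 CPM in their High libraries. Each animal was lower in High, by −0.53, −0.23, −0.34 and −0.05 on the log2 scale, but the groups overlapped. The mean was 377 ± 64.9 CPM in Low and 314 ± 85.3 in High (SD, n = 4 each), with a log2 fold change of −0.26 (SE 0.23, 95% interval −0.77 to 0.25, edgeR adjusted p 0.382). Under total counts alone it was lower by 0.86 in log2 terms (edgeR adjusted p 0.00309, in a range of 0.00309 to 0.738 over its alternatives).

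Other subunit genes of the sodium pump were looked at beside Atp1b3. The beta subunit gene Atp1b1 had a mean of 3.77 CPM in Low and 3.35 in High (edgeR adjusted p 0.674), and Atp1b2 one of 1.49 and 1.40 (edgeR adjusted p 0.915). The regulatory subunit gene Fxyd3 was at 117 and 111 CPM (edgeR adjusted p 0.801). None of these 3 passed the test.

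**Figure D2:**
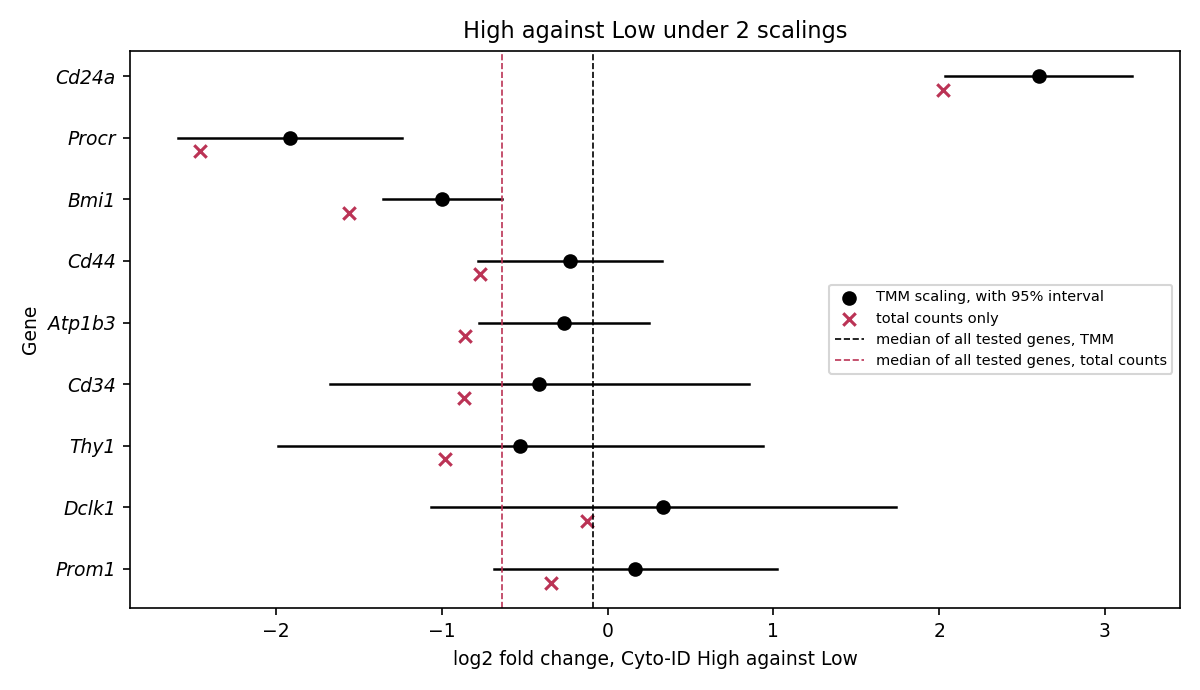
Log2 fold change of each marker, Cyto-ID High against Low, with TMM scaling and its 95% interval (black) and with scaling by total counts alone (red crosses), beside the median of all tested genes under each scaling (dashed lines). Both scalings place Cd24a, Procr and Bmi1 on the same side of 0, while the crosses of Cd44 and Atp1b3 lie at −0.77 and −0.86 and those of Dclk1 and Prom1 on the other side of 0 from their black points.

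The scaling shifted the 5 more abundant markers by nearly the same amount. Relative to the median of all tested genes, Cd24a stood at 2.69 with TMM and 2.66 with total counts, Procr at −1.82 with both, and Bmi1 at −0.91 and −0.92. Cd44 stood at −0.14 and −0.13 and Atp1b3 at −0.17 and −0.22 by the same measure. Ratios of 2 genes in 1 library need no scaling. There were 0.0867 to 0.272 Cd24a counts per Cd44 count in the Low libraries and 0.890 to 1.74 in the High libraries, a mean ratio 6.44 times higher in High. CD44 and CD24 proteins are gated as a pair in mammary epithelium. For Cd44 per Itgb1, the transcript of the gated integrin, the range was 1.18 to 2.19 in Low and 5.49 to 10.1 in High. This ratio rose with the fall of Itgb1 (370 CPM in Low, 68.2 in High). Cd44 itself did not pass, so the ratio does not show a gain of Cd44.

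The other 4 markers, Cd34, Thy1, Dclk1 and Prom1, were low and spread widely in Cyto-ID High. Cd34 was at 17.5, 12.3, 10.0 and 16.0 CPM in the Low libraries of Female1, Female2, Male1 and Male2. In their High libraries it was at 19.8, 7.14, 14.6 and 1.39 CPM, where the highest exceeded the lowest 14.2 times. High Male2 held 27 counts of Cd34 and the other 7 libraries 164 to 567. The mean was 14.0 ± 3.42 CPM in Low and 10.7 ± 8.10 in High (SD, n = 4 each), with a log2 fold change of −0.41 (SE 0.56, 95% interval −1.67 to 0.85, edgeR adjusted p 0.596). Without High Male2 the log2 fold change was −0.02 (edgeR adjusted p 0.972), and without both libraries of Male2 it was 0.13 (edgeR adjusted p 0.802). Over its alternatives the adjusted p of Cd34 ran from 0.108 to 0.972.

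Thy1, too, spread most in High. The Low libraries held 8.18, 5.00, 5.75 and 6.49 CPM, in the order Female1, Female2, Male1 and Male2. The High libraries held 9.07, 2.87, 6.06 and 0.257 CPM, the last from 5 counts. The animals numbered 1 were slightly higher in High and those numbered 2 lower, with −4.33 in Male2 as High minus Low on the log2 scale. The mean was 6.36 ± 1.36 CPM in Low and 4.57 ± 3.83 in High (SD, n = 4 each), with a log2 fold change of −0.52 (SE 0.65, 95% interval −1.99 to 0.94, edgeR adjusted p 0.556). Without High Male2 it was −0.09 (edgeR adjusted p 0.866, in a range of 0.104 to 0.979 over its alternatives).

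Dclk1 had 3 to 98 counts per library. It was at 1.88, 1.65, 1.18 and 1.36 CPM in the Low libraries of Female1, Female2, Male1 and Male2. It was at 3.78, 1.13, 2.67 and 0.154 CPM in their High libraries, where the last value rests on 3 counts. The animals numbered 1 were higher in High and those numbered 2 lower. The log2 fold change was 0.34 (SE 0.63, 95% interval −1.06 to 1.74, edgeR adjusted p 0.704), 0.72 without High Male2 (edgeR adjusted p 0.166) and −0.39 without High Male1 (edgeR adjusted p 0.681). Its adjusted p ran from 0.166 to 0.968 over its alternatives, and no direction can be given for Dclk1.

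Prom1 had 8 to 54 counts per library. It was at 1.30, 1.15, 0.932 and 0.875 CPM in the Low libraries of Female1, Female2, Male1 and Male2. It was at 2.08, 1.22, 1.22 and 0.412 CPM in their High libraries, with 3 animals higher and Male2 lower. The log2 fold change was 0.17 (SE 0.38, 95% interval −0.69 to 1.02, edgeR adjusted p 0.760), and it was −0.068 without High Female1 and −0.067 without High Male1. Its paralog Prom2, in contrast, was abundant and rose from 125 to 589 CPM (2.22, SE 0.21, edgeR adjusted p 2.91e-05). Of the relatives of Dclk1, Dclk3 fell from 11.0 to 3.48 CPM (−1.65, SE 0.22, edgeR adjusted p 0.000232) and Dclk2, with 0 to 27 counts per library, did not pass (edgeR adjusted p 0.970).

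These 4 markers had the same order in the High libraries, Female1 over Male1 over Female2 over Male2. For Prom1 the step from Male1 to Female2 was a tie at the precision printed (both 1.22 CPM, from 32 and 28 counts). That order held for 14.6% of all tested genes. It also held for 8 of 12 fibroblast genes, 8 of 12 endothelial genes, 7 of 9 leukocyte genes and 10 of 12 muscle genes. The summed fibroblast markers were at 538, 423, 401 and 590 CPM in the Low libraries of Female1, Female2, Male1 and Male2 and at 508, 172, 367 and 62.1 CPM in their High libraries. The summed leukocyte markers ranged from 74.1 to 120 CPM in Low and from 10.8 in High Male2 to 125 in High Female1. Muscle markers ranged from 49.5 to 75.5 CPM in Low and from 5.20 to 75.4 in High, with Male2 lowest, and endothelial markers from 41.7 to 68.7 in Low and from 25.4 to 73.8 in High. All 12 fibroblast markers had counts in each library, and High Male2 had counts for 11 of 12 endothelial, 11 of 13 leukocyte and 9 of 12 muscle markers. In the fit of the fractions 0 fibroblast genes were higher and 2 lower of 12 (Dcn −2.87 and Fbln1 −1.93 on the log2 scale, with a list median of −0.41), 0 of 12 endothelial genes passed (median −0.29), 1 leukocyte gene of 9 was higher and 1 lower (median −0.42), and 1 muscle gene of 12, Acta2, was lower (median −0.13). The part of such cells in the levels of Cd34, Thy1, Dclk1 and Prom1 was not tested.

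**Figure D3:**
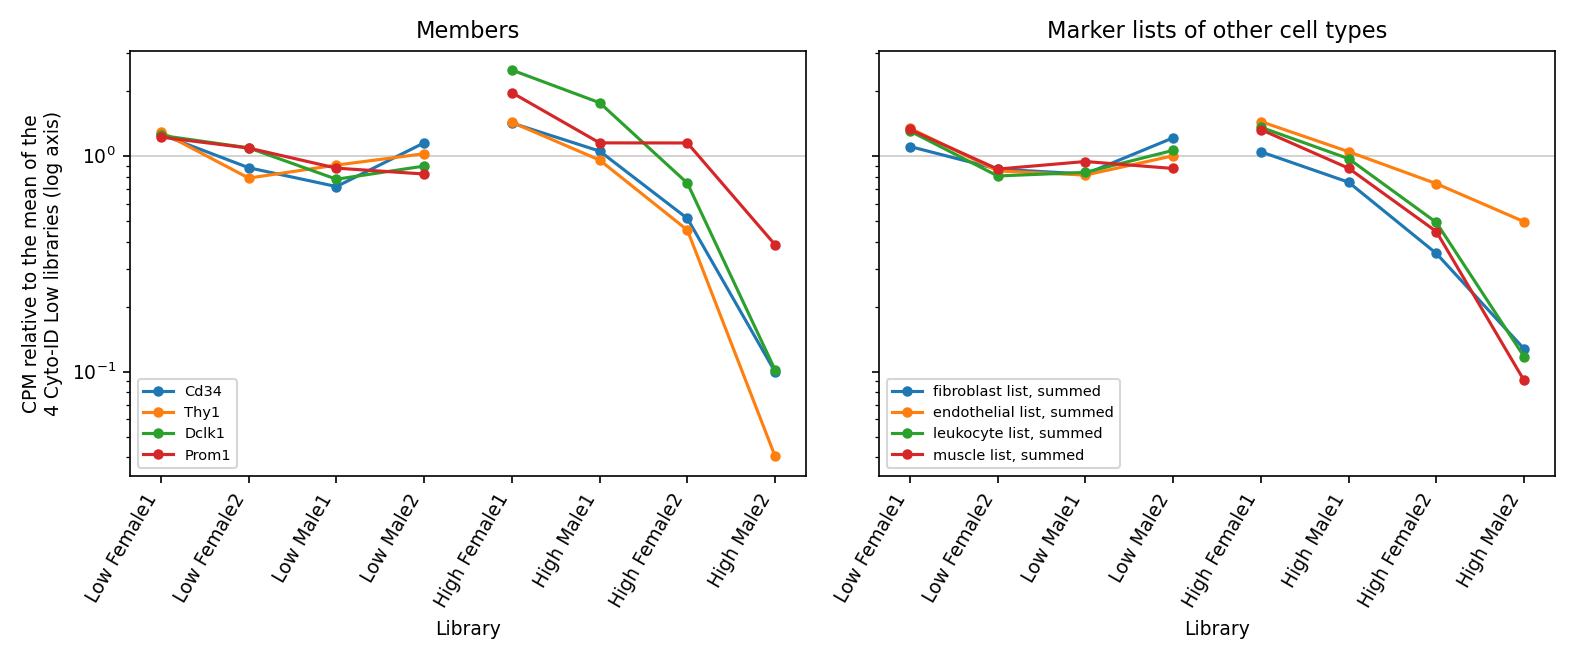
CPM relative to the mean of the 4 Cyto-ID Low libraries, on a log axis, for Cd34, Thy1, Dclk1 and Prom1 (left) and for the summed fibroblast, endothelial, leukocyte and muscle markers (right), with 1 point per library and lines that join the libraries of a fraction. The High libraries are drawn in the order Female1, Male1, Female2, Male2, in which the markers and the lists descend, with Prom1 level from Male1 to Female2, to 62.1 CPM for the fibroblast list in High Male2.

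Cd34 tracked a fibroblast collagen gene most closely. Col3a1, which encodes a collagen chain made by fibroblasts, was the gene nearest to Cd34 over the 8 libraries by the measure given further on, so their closeness is a description. There were 13.8 Cd34 counts per 100 Col3a1 counts in each of the 4 Low libraries, and 13.1, 14.8, 13.5 and 14.8 in the High libraries of Female1, Female2, Male1 and Male2. In High Male2 this rested on 27 and 183 counts, with an exact 95% interval of 9.47 to 22.2 that covers counting error only. Thy1 was at 5.60 to 7.90 per 100 Col3a1 counts in Low and at 5.58 to 5.999 in 3 High libraries, and at 2.73 in High Male2 (exact interval 0.877 to 6.49). Dclk1 did not keep to Col3a1 as Cd34 did. It was at 1.17 to 1.86 in Low. In High it was at 2.50 in Female1, 2.35 in Female2 and 2.46 in Male1, above the Low range. In High Male2 it was at 1.64, from 3 counts of Dclk1 (exact interval 0.335 to 4.87). Prom1, too, did not keep to Col3a1 as Cd34 did. It was at 0.756 to 1.30 in Low. In the High libraries of Female1, Female2, Male1 and Male2 it was at 1.38, 2.53, 1.12 and 4.37. The last rests on 8 counts of Prom1 (exact interval 1.86 to 8.80).

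Tuft cells, which Dclk1 marks in the gut, were looked at by a list of 12 genes. Of these 6 were tested, 3 of them higher in Cyto-ID High and 0 lower. Avil, which encodes an actin-bundling protein, rose from 0.754 to 3.38 CPM (log2 fold change 2.16, SE 0.31, edgeR adjusted p 0.000326). Ptgs1, which encodes a cyclooxygenase, rose from 24.3 to 50.1 CPM (1.03, SE 0.15, edgeR adjusted p 0.000438). Pou2f3, the transcription factor of the tuft lineage, which squamous keratinocytes also express, rose from 4.89 to 9.11 CPM (0.89, SE 0.27, edgeR adjusted p 0.0206). The defining tuft genes were at or near 0. Trpm5 had 2 to 4 counts per library, Il25 and Chat 0 or 1, Gnat3 0 to 2, Sh2d6 0 to 3, and Gfi1b had 0 in every library.

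The order of the markers was compared per kilobase of merged exon, since raw CPM favours long transcripts. In Cyto-ID Low the level of Atp1b3 was 157.7 ± 27.2 CPM per kilobase, above Cd44 at 88.4 ± 30.1, Procr at 52.7 ± 16.3 and Cd24a at 39.8 ± 11.4 (SD, n = 4). The ranges of Cd44 (56.5 to 122) and Procr (29.7 to 64.3) overlapped, as did those of Procr and Cd24a (23.7 to 50.3), while that of Atp1b3 (133 to 193) lay above Cd44. Bmi1 followed at 5.73 ± 0.542, Thy1 at 2.12 ± 0.455, Cd34 at 1.91 ± 0.469, Prom1 at 0.148 ± 0.0274 and Dclk1 at 0.0993 ± 0.0204. Thy1 and Cd34 overlapped, and so did Prom1 and Dclk1. In Cyto-ID High the level of Cd24a was the highest, at 240.8 ± 44.1 CPM per kilobase (199.9 to 298.9), above the whole range of Atp1b3 (131.5 ± 35.7, 92.1 to 164.4). Cd44 came next at 75.8 ± 8.24, then Procr at 13.99 ± 4.75 and Bmi1 at 2.89 ± 0.522. Cd24a thus moved from the fourth to the first place, and the other 8 kept their order among themselves. Thy1 (0.0859 to 3.03), Cd34 (0.191 to 2.71) and Bmi1 (2.34 to 3.58) overlapped in High.

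The genes with the most similar profile were sought for each marker among 10006 or 10007 genes with a mean of at least 5 CPM, by the root mean square difference of centred log2 CPM over the 8 libraries. Col3a1 (0.07), Col1a1 (0.10) and Fbln2 (0.10), 3 genes of the extracellular matrix, were nearest to Cd34, where the median gene stood at 1.27. H2-Aa (0.12), Cald1 (0.13) and Pcdh7 (0.18) were nearest to Thy1, and Acta1, Kif5a and Pxdn (each 0.20) to Dclk1. H2-Aa encodes an antigen-presenting molecule of leukocytes and Acta1 the actin of skeletal muscle. Gsta2 (0.12), a glutathione transferase gene, Sdr16c5 (0.13) and Plekhg1 (0.14) were nearest to Cd24a. Nearest to Procr were Tbc1d1, Arid5a and Tnfrsf10b (each 0.22), and nearest to Bmi1 were Idh3a (0.095), Synj2bp (0.098) and Nol8 (0.11). Ccnt2 (0.093), Srsf11 (0.10) and Igsf9 (0.11) were nearest to Cd44, Kmt5b (0.055), Cpsf3 (0.067) and Hdhd2 (0.079) to Atp1b3, and Bnip3 (0.18), Chil4 (0.20) and Krt6b (0.25) to Prom1.

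Other genes reported as markers of stem or progenitor cells were counted beside the 9. Of 29 tested genes 5 were higher in Cyto-ID High and 15 lower, with a median of −0.71 beside −0.09 for all genes (3 were higher under total counts alone). Col17a1, a hemidesmosomal collagen, fell from 1952 to 137 CPM (log2 fold change −3.86, SE 0.32, edgeR adjusted p 1.83e-05). Itgb4, the integrin of the same junctions, fell from 952 to 78.3 CPM (−3.62, SE 0.27, edgeR adjusted p 1.48e-05). Ngfr, a neurotrophin receptor used to enrich esophageal basal stem cells, fell from 26.8 to 1.96 CPM (−3.77, SE 0.29, edgeR adjusted p 1.62e-05). Hopx, a homeodomain protein of slowly cycling intestinal cells, rose from 48.0 to 576 CPM (3.58, SE 0.36, edgeR adjusted p 3.96e-05). Col17a1, Itgb4, Krt15, Itga6 and Itgb1, each among the lower genes, are also on the basal keratinocyte list, so the 2 lists are not independent. Lgr5, the marker of intestinal crypt stem cells, was named after its values were seen. It had 0 to 18 counts per library (log2 fold change −0.71, edgeR adjusted p 0.410).

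**Figure D4:**
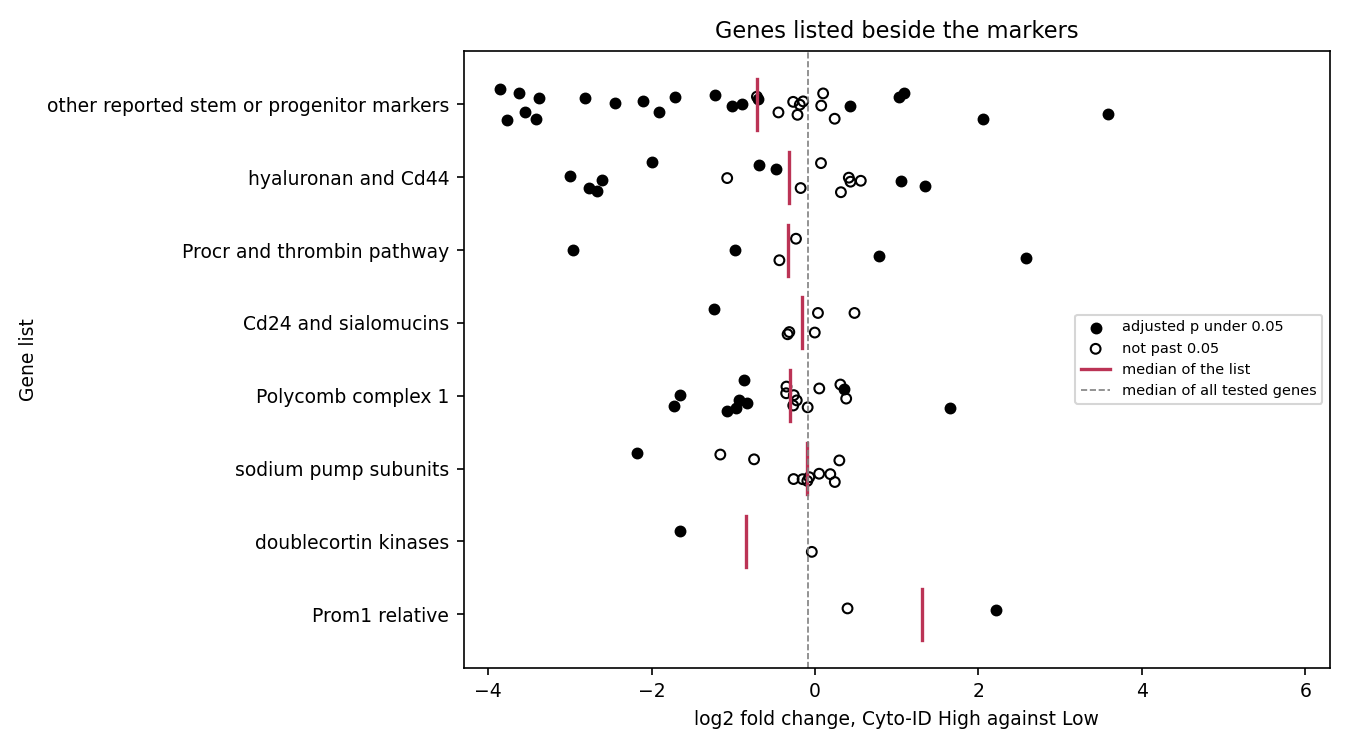
Log2 fold change of each tested gene, Cyto-ID High against Low, in the lists set beside the markers, with filled points for an edgeR adjusted p under 0.05, open points for the others, red bars at the list medians and a dashed line at the median of all tested genes. The other stem and progenitor markers have a median of −0.71, beside −0.09 for all genes.

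An interaction term for sex by fraction asked whether the markers differed between the fractions by another amount in males. It passed an edgeR adjusted p of 0.05 for 0 of 17344 genes. An unadjusted p below 0.05 was found for 19 genes, and none of the 9 markers was among them. Chance alone would give about 1 in 20 of the 17344 genes, so this test was conservative here. That no marker was among the 19 therefore tells little. The smallest p among the markers was that of Bmi1, with a male minus female difference of −0.44 in the log2 fold change (SE 0.31, edgeR unadjusted p 0.196 over 4 animals, adjusted p 1.00). With 2 animals of each sex this does not show that the sexes are alike.

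Some reads may be shared with other genes. In the GENCODE M21 annotation of GRCm38, Cd24a lies on chromosome 10 (43578284 to 43584265), Procr on chromosome 2 (155751117 to 155755471), Bmi1 on chromosome 2 (18677018 to 18686629) and Cd44 on chromosome 2 (102811141 to 102901665). Atp1b3 lies on chromosome 9 (96332655 to 96364442) and Cd34 on chromosome 1 (194938819 to 194961279). Exons of Cd34, Prom1 and Dclk1 overlap those of other genes on the opposite strand, over 2.03% of the Cd34 exons and 5.91% of the Prom1 exons. The labels do not say whether counting used the strand. Near-identical copies share stretches of 50 bases with 3 of the markers. The processed pseudogene Gm1848 on chromosome X had 9.61 to 12.01% as many counts as Atp1b3, Gm5946 on the same chromosome 2.20 to 7.29% as many as Bmi1, and Gm6212 on chromosome 14 2.20 to 3.85% as many as Cd24a. How the counting split such reads is not given in the sources used here. Overlaps of the other genes named were not examined.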

How the data were processed

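RNA-seq of 8 libraries was analysed, 4 Cyto-ID High and 4 Cyto-ID Low, grouped by the labels' treatment field. The authors deposited raw counts per gene symbol; that these are counts follows from the whole numbers and the different totals. STAR 2.7.3, DESeq2 and the build GRCm38 are named, without a role, per the submitters' processing notes; the counting tool, strandedness and filters are not given in the sources used here. The 9 markers, the lists beside them and the alternatives were chosen with earlier results of these data known.

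The comparison of the fractions used edgeR 4.0.16 under R 4.3.3 (filterByExpr by fraction, TMM, sex as a covariate, glmQLFit and glmQLFTest, two-sided, Benjamini-Hochberg over 17344 genes, threshold 0.05). A standard error is the log2 fold change over the root of F. Levels are TMM-scaled CPM, with a prior count of 2 on the log2 scale. Differences within an animal were taken from log2 CPM. List genes were named by size (up to 4 per list with a mean of at least 1 CPM, past the threshold and with 1 sign in all animals); ligands and relatives of a marker were named whatever their value. The similar profiles used genes of at least 5 CPM.

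Both fractions of an animal were sorted from its 1 suspension per the labels' protocols, so the animal names pair the libraries. Deviations from the fraction means correlated by 0.43, 0.32, −0.02 and 0.28 in Female1, Female2, Male1 and Male2. No 2 libraries of a fraction agreed within sampling noise (chi-square per degree of freedom at least 17.7). On simulated counts of 16953 genes, with 200 changed by 1.5 on the log2 scale, the comparison of the fractions recovered 70% and called 11 others.

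Alternatives were RLE size factors, total counts only, no filter, at least 10 counts in every library, a robust fit, DESeq2 1.42.0, limma-voom (limma 3.58.1), the animal as a replicate block, no covariate, both libraries of Female2 or of Male2 left out, and each library left out. Locations and shared stretches came from GENCODE M21, promoters from RefSeq (GRCm38.p6). One symbol of the gastric list was not in the table. Molecular identifiers are not stated. Some genes of the lists are not reported here.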

Additional observations from a re-analysis of the deposited data

Results flagged for a closer look

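In 32 groups of 4 libraries, those of the 9 markers and the summed lists of 7 other cell types in each fraction, the highest and the lowest library were set against the others with Dixon's test. By chance it singles out about 1 in 20 groups, and here 3 were singled out, none of them a marker gene. The summed gastric epithelium markers of Female2 stood far from the other libraries in both fractions, at 19.8 CPM in Cyto-ID Low and 117 CPM in Cyto-ID High. The summed muscle markers were high in the Low library of Female1, at 75.5 CPM. Without both libraries of Female2, Cd24a was at 2.50, Procr at −1.89 and Bmi1 at −1.05 on the log2 scale, each past the threshold.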

How the results depend on the processing

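Cd24a, Procr and Bmi1 passed in the same direction under all 19 alternatives; with one library left out they ran from 2.40 to 2.86, from −2.17 to −1.68 and from −1.12 to −0.91. The count of markers that passed was 1 higher and 2 lower under every alternative except scaling by total counts only, where it was 1 higher and 4 lower. That scaling gave 2194 higher and 8514 lower genes (20.5% of the called genes higher, 48.0% with TMM), put Cd44 (−0.77) and Atp1b3 (−0.86) past the threshold, and turned Prom1 to −0.34 and Dclk1 to −0.12. Dclk1 was also at −0.061 with limma-voom and at −0.033 with the replicate block. The block called 9336 genes in all and changed the call of no marker. Cd34 was at 0.13 without both libraries of Male2.

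With one library left out, Cd44 ran from −0.37 to 0.039, Prom1 from −0.068 to 0.43, Dclk1 from −0.39 to 0.72, Cd34 from −1.06 to −0.02, Thy1 from −1.19 to −0.09 and Atp1b3 from −0.43 to −0.10; the count of all called genes ran from 7269 to 8106. The cause of these reversals was not tested. A minimum of 10 counts in every library gave no value for Thy1, Dclk1 and Prom1. Under total counts only, 3 other stem markers were higher in place of 5, 1 thrombin pathway gene higher in place of 2, and 1 endothelial and 1 nerve gene lower in place of 0. With RLE size factors and with the block, 4 hyaluronan genes were higher in place of 2, and with RLE size factors 0 genes of the Cd24a partner list were lower in place of 1. The low counts of Thy1, Dclk1 and Prom1 in High Male2 (5, 3 and 8) limit their precision.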

Other observations

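The order of the High libraries shared by Cd34, Thy1, Dclk1 and Prom1 (Female1, Male1, Female2, Male2) was counted in the other lists too. It held for 1 of 18 genes of the Polycomb list, Cdkn2a, which is a target and not a subunit of the complex. It held for 3 of 16 basal keratinocyte genes (Krt14, Itgb1 and Postn) and 2 of 19 suprabasal genes (Krt6b and Ivl), and for 14.6% of all tested genes. These named genes were named after their values were seen. It held for 7 of 11 sodium pump genes, 5 of 6 genes on the list of Cd24a partners and sialomucins, and 8 of 29 other stem and progenitor markers. Of 7 tested nerve and Schwann genes 6 had it, while their summed level ranged from 136 to 187 CPM in High. The summed tuft genes went another way, from 30.1 to 36.1 CPM in Low and from 55.1 in Female1 to 82.9 in Male2 in High. These are descriptions of 4 libraries and were not tested.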
